A study of Homo sapiens with 9 samples.

Results

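The potassium channel genes are described here in 3 stable lines of T47D, an established breast cancer cell line of luminal type. They are the genes whose name on the array begins with KCN. Names of antisense, intronic or overlapping transcripts, 15 of them, were left out, which gave 96 genes with 129 probes among the 43395 genes on the array. T47D-PA6 carried a plasmid with the full-length form of PTH-AS, a long noncoding RNA transcribed downstream of the human parathyroid hormone gene. T47D-PA5 carried a fragment of similar size that lacks part of the 5′ end, and T47D-VC1 carried the empty vector. The study's methods name the vector, pTARGET, whose viral promoter drives the insert, and selection with G418, and its supplement states that 1 of several stable lines with high expression was used. Each group therefore stands for 1 selected line. RNA of each line was measured on 3 single-color microarrays, 9 in all. The labels do not state whether the 3 arrays of a line came from separate cultures, so p-values measure only the spread between these arrays.

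Potassium channels let potassium ions cross the cell membrane and so set the resting membrane potential. In epithelial and breast cells they are also known for roles in cell volume, ion transport and the cell cycle. Voltage-gated channels open when the membrane depolarizes, two-pore domain channels carry the background leak current, inward rectifiers pass current more easily into the cell, and calcium-activated channels open when calcium rises. Silent subunits form no working channel by themselves and join voltage-gated partners, and auxiliary subunits alter the opening or the trafficking of the channels they bind.

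In T47D-PA6, the leak channel genes KCNK1 and KCNK2 and the calcium-activated channel gene KCNMA1 had lower signal than in T47D-VC1, and the silent subunit genes KCNG1 and KCNS3, the two-pore domain genes KCNK12 and KCNK15 and the inward rectifier gene KCNJ14 had higher signal. KCNK1 fell to 0.111 of its level in T47D-VC1. In T47D-PA5, KCNS3 rose to 6.01 times the control level, above its level in T47D-PA6, KCNG1 rose to 1.94 times, and the calcium-activated channel gene KCNN2 fell to 0.508 of the control level. The KCNN2 signal in T47D-PA5 was near background, so the size of its fall is uncertain. KCNN2 in T47D-PA5 also failed the test in 6 of the 9 fits that each left out 1 array. KCNG1 in T47D-PA5 and KCNMA1, KCNS3, KCNK15 and KCNJ14 in T47D-PA6 failed it against T47D-VC1 in 3 to 5 of these fits. None of the 9 auxiliary subunit genes tested passed the test in any comparison. Their adjusted p-values in limma were all at or above 0.068, the value of KCNE4 in T47D-PA6 over T47D-VC1.

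A probe entered the test when, in at least 1 line, all 3 arrays were well above background as marked by Feature Extraction, the software that read the arrays. Where several probes of a gene did so, the brightest stands for the gene. This kept 38 of the 96 KCN genes and 20092 genes in all. The gene's probe was well above background on all 9 arrays for 26 KCN genes, on some arrays for 26 and on none for 44. Of the 30 voltage-gated pore subunit genes, 12 were tested and 15 were well above background on no array. Of the 16 inward rectifier genes, 10 were well above background on no array, and KCNJ11, the pore of the ATP-sensitive channel, and KCNJ14 were tested. The tested genes numbered 7 of 14 in the two-pore domain class, 4 of 10 among silent subunits, 4 of 8 among calcium- or sodium-activated channels and 9 of 17 among auxiliary or regulatory proteins. The 1 non-coding gene, KCNQ1DN, was not tested. Of the 58 untested genes, 14 were well above background on at least 1 array, among them the two-pore domain gene KCNK9 on 6 arrays and the silent subunit gene KCNG4 on 4. The single probe of the silent subunit gene KCNS2 had an outlier spot on T47D-PA6 replicate 1 and was dim on the other arrays. KCNJ12 and KCNJ18 are near-identical copies whose probes may share transcripts, and neither was tested.

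**Figure D1:**
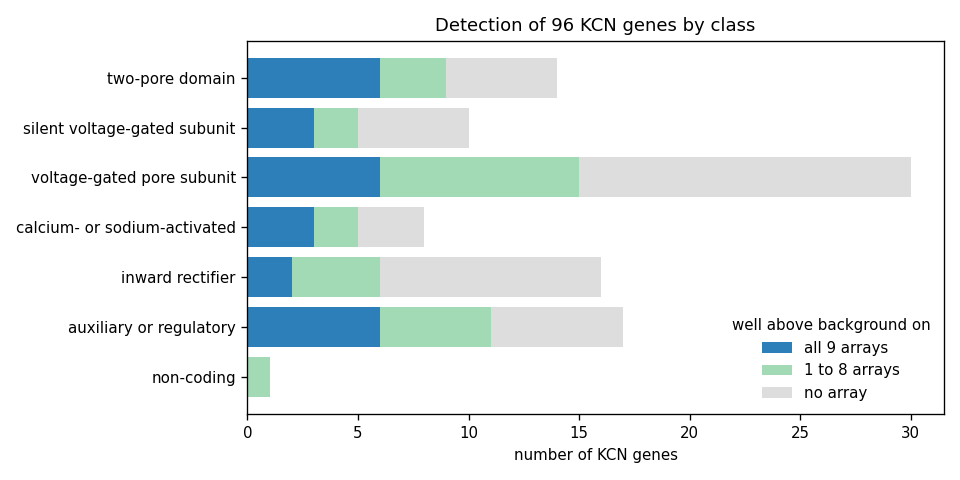
Number of KCN genes (x axis) in each class (y axis), with bars split by the number of arrays on which the gene's probe was well above background. All 9 arrays detected 26 of the 96 genes, and no array detected 44.

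Normalized signals are given below by array, in the order of replicates 1, 2 and 3 of a line. They can be compared between lines for 1 gene and not between genes, because probes differ in how strongly they bind. Fold changes are on the log2 scale of the quantile-normalized signal with the standard error (SE) of the fit. RNA from whole cultures cannot tell fewer expressing cells from less RNA per cell. The limma fit ran on all tested probes, and p-values were adjusted over all 20092 genes.

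In T47D-PA6 over T47D-VC1, limma called 9 of the 38 tested KCN genes (23.7%) at an adjusted p-value under 0.05, compared with 9.76% of all genes tested. Of the 9 genes, 6 were higher (15.8%, against 4.59% of all genes) and 3 lower (7.89%, against 5.16%). The median log2 fold change was 0.26 over the tested KCN genes and -0.03 over all genes, and the median absolute log2 fold change was 0.47 and 0.21. In T47D-PA5 over T47D-VC1, 3 KCN genes (7.89%) were called, compared with 1.67% of all genes, with 2 higher (against 1.37%) and 1 lower (against 0.299%). In T47D-PA6 over T47D-PA5, 8 KCN genes (21.1%) were called, compared with 9.5% of all genes, with 3 higher (against 3.54%) and 5 lower (against 5.96%). These comparisons share arrays, since each line enters 2 of them. The counts describe the genes bright enough to test. For a gene that passed the filter only through the line where it is high, the filter favours a difference.

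By the study's definition, a ratio above 2 or below 0.6 to T47D-VC1 with no test, 11 tested KCN genes were past the limits in T47D-PA6 (28.9%), compared with 7.64% of all genes. They were 6 higher and 5 lower. In T47D-PA5 the count was 9 (23.7%), compared with 3.93% of all genes, with 6 higher and 3 lower. Of these, 7 of the 11 genes in T47D-PA6 and 2 of the 9 in T47D-PA5 were also called by limma. The fold limits take no account of the spread between arrays, which was larger for the tested KCN genes than for all genes. The median SD between arrays of a line (log2 scale) over KCN genes was 0.29 for T47D-VC1, 0.28 for T47D-PA5 and 0.30 for T47D-PA6. Over all genes it was 0.18, 0.15 and 0.18. The part of this spread in the shares past the limits, and in the median absolute log2 fold changes above, was not tested.

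The counts of calls changed with the arrays used, over the KCN genes and over all genes tested. The T47D-PA6 over T47D-VC1 count was 9 with all arrays and fell to 5 without T47D-VC1 replicate 2, 4 without T47D-VC1 replicate 3, 4 without T47D-PA6 replicate 2 and 5 without T47D-PA6 replicate 3. Over all genes the count was 1960 with all arrays and fell to 984, 693, 777 and 691 in that order. The T47D-PA6 over T47D-PA5 count of 8 fell to 5 without T47D-VC1 replicate 3, to 4 without T47D-PA5 replicate 2, T47D-PA5 replicate 3 or T47D-PA6 replicate 3, and to 3 without T47D-PA6 replicate 2, and it was 14 without T47D-PA6 replicate 1. Over all genes the count of 1908 fell to 1384, 829, 755, 707 and 701, and the last fit gave 2900. The T47D-PA5 over T47D-VC1 count of 3 fell to 1 without any one of T47D-VC1 replicate 3, T47D-PA5 replicate 2, T47D-PA5 replicate 3 and T47D-PA6 replicate 3. Over all genes the count of 336 fell to 103, 121, 99 and 205 in that order. Of the single calls, 4 of 9, 1 of 3 and 3 of 8 in the order of the comparisons above held in all 9 fits that each left out 1 array. They were KCNG1, KCNK1, KCNK2 and KCNK12 in T47D-PA6 over T47D-VC1, KCNS3 in T47D-PA5 over T47D-VC1, and KCNK1, KCNK2 and KCNN2 in T47D-PA6 over T47D-PA5.

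**Figure D2:**
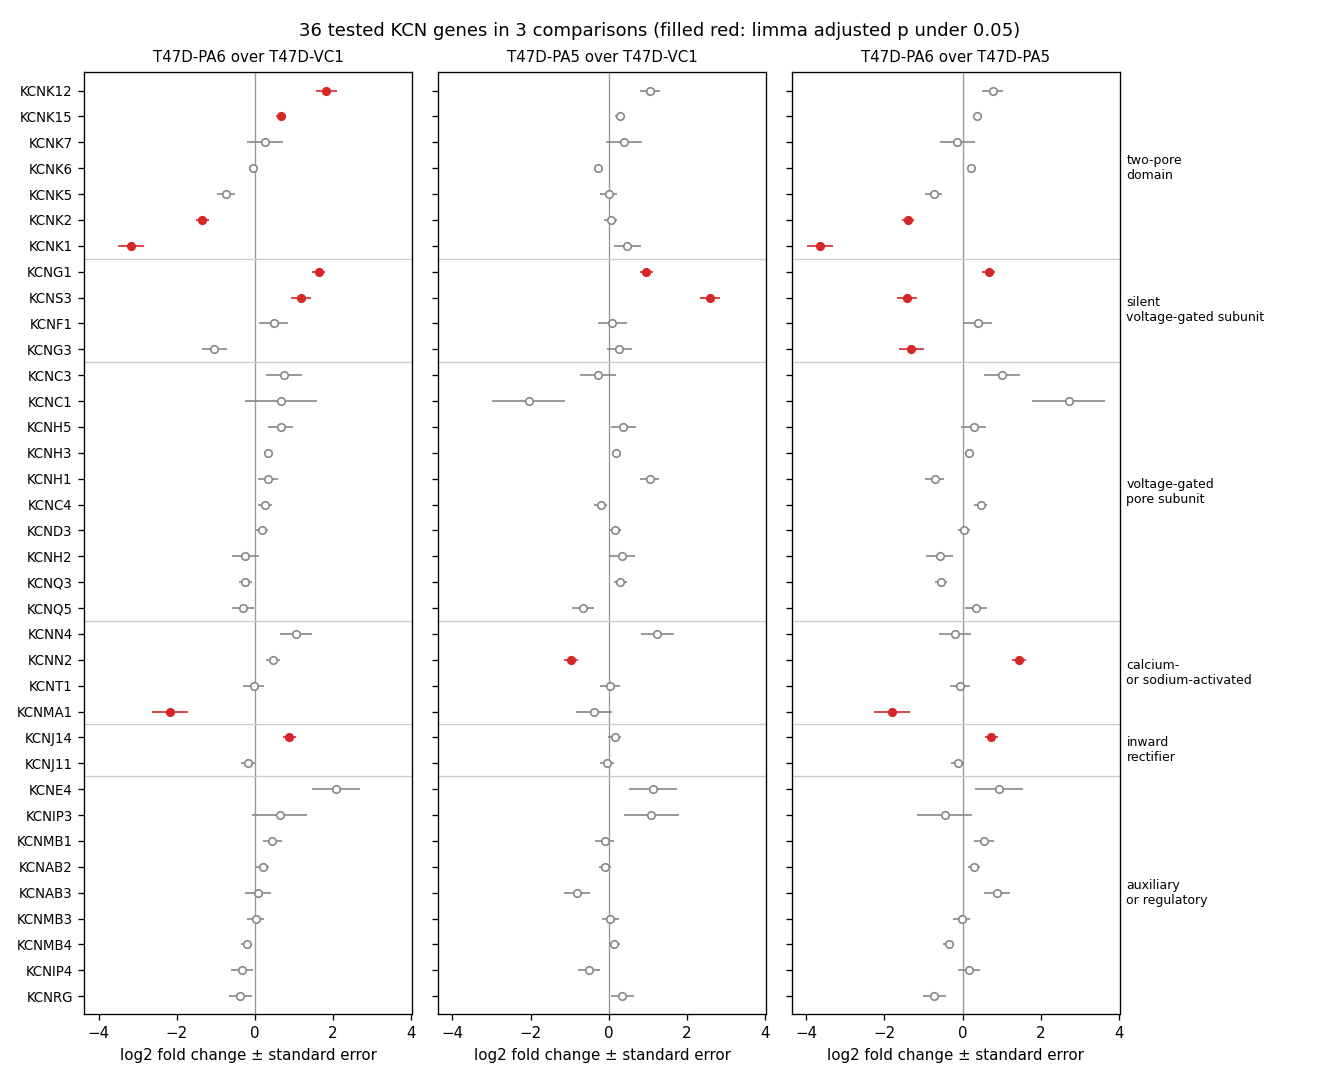
Log2 fold change (x axis) with its standard error for 36 tested KCN genes (y axis, grouped by class) in the 3 comparisons. Filled red points have a limma adjusted p-value under 0.05, and the points farthest from 0 among them are KCNK1 in T47D-PA6 over either other line (-3.17 and -3.65) and KCNS3 in T47D-PA5 over T47D-VC1 (2.59).

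Among the two-pore domain genes, KCNK1 showed the lowest ratio. KCNK1 encodes TWIK1, a leak channel found mostly inside cells, and its probe lies at chr1:233807558-233807617 on hg19. Its signal was 495, 550 and 523 in T47D-VC1, 689, 740 and 757 in T47D-PA5, and 111, 48.1 and 37.0 in T47D-PA6. Every T47D-PA6 array was below every array of the other lines, and the T47D-PA5 arrays were all above the T47D-VC1 arrays. The log2 fold change of T47D-PA6 was -3.17 over T47D-VC1 (SE 0.34, limma adjusted p = 0.0014) and -3.65 over T47D-PA5 (SE 0.34, limma adjusted p = 0.0014). Between T47D-PA5 and T47D-VC1 it was 0.48, with a 95% interval of -0.29 to 1.25, and did not pass the test. A second KCNK1 probe was well above background on no array. The difference was present on both slides that held all lines, -2.16 on slide 1 and -3.63 on slide 3 against T47D-VC1. Slide 1 held replicate 1 of each line, and T47D-PA6 replicate 1 was higher than the mean of the other T47D-PA6 arrays by 1.39 on the log2 scale.

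The RefSeq record on GRCh38.p14 places the 250 bases before the start of KCNK1 at chr1:233613856-233614105, on the plus strand. They are shown because KCNK1 had the lowest ratio of the tested genes, with CG dinucleotides in capitals. They hold 30 CG, compared with a median of 11 over 35116 promoter records of the same length.
KCNK1: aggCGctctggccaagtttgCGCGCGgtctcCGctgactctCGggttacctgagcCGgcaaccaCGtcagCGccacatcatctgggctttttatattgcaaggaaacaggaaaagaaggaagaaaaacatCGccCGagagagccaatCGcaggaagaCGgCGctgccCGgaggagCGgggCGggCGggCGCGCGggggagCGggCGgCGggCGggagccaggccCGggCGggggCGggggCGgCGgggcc

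KCNK2 encodes TREK1, a leak channel opened by stretch and fatty acids, and its probe lies at chr1:215410352-215410411. Its signal was 12470, 8088 and 8542 in T47D-VC1, 10190, 9471 and 9843 in T47D-PA5, and 4103, 3488 and 3649 in T47D-PA6. The T47D-PA6 arrays were all below the others, while the other lines overlapped. KCNK2 fell by 1.35 in T47D-PA6 over T47D-VC1 (SE 0.17, limma adjusted p = 0.0026) and by 1.40 over T47D-PA5 (SE 0.17, limma adjusted p = 0.0029) on the log2 scale. Between T47D-PA5 and T47D-VC1 the difference was 0.05, with a 95% interval of -0.33 to 0.42.

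KCNK1 and KCNK2 both lie on the long arm of chromosome 1, and their neighbours on that chromosome also had lower signal in T47D-PA6 than in T47D-PA5. Within 5 Mb of the KCNK1 probe, the median over 71 other tested genes was -0.58 in T47D-PA6 over T47D-PA5 on the log2 scale, and 33 of them were called lower and 1 higher. Within 5 Mb of KCNK2 the median over 49 genes was -0.68, with 27 called lower and 1 higher. The median over all 2019 other tested genes of chromosome 1 was -0.12. Against T47D-VC1 the neighbours moved less, with medians of -0.11 around KCNK1 (9 lower and 2 higher) and -0.27 around KCNK2 (6 lower and 1 higher). In T47D-PA5 over T47D-VC1 the neighbours were higher, with medians of 0.37 and 0.33. Their part in the KCNK1 and KCNK2 results was not tested. For the other 9 called KCN genes, the median of the neighbours lay between -0.11 and 0.12 in every comparison.

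KCNK12 and KCNK15 had higher signal in T47D-PA6. KCNK12 encodes THIK2, a member of the class that gives little current by itself, and its probe lies at chr2:47747936-47747995. Its signal was 25.6, 37.4 and 33.0 in T47D-VC1, 63.1, 69.1 and 65.0 in T47D-PA5, and 71.4, 136 and 146 in T47D-PA6. The lines did not overlap, and T47D-PA5 lay between the others. KCNK12 rose by 1.83 in T47D-PA6 over T47D-VC1 (SE 0.26, limma adjusted p = 0.0052). The difference was 1.05 in T47D-PA5 over T47D-VC1 (SE 0.26, limma adjusted p = 0.097) and 0.77 in T47D-PA6 over T47D-PA5 (SE 0.26, limma adjusted p = 0.11), neither of which passed the test. Without T47D-PA6 replicate 1, KCNK12 passed the test in T47D-PA5 over T47D-VC1 at the same log2 fold change.

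KCNK15 encodes TASK5, which gives no measured current when expressed alone. Its signal was 1595, 1826 and 1722 in T47D-VC1, 2334, 1965 and 1969 in T47D-PA5, and 2461, 2815 and 2890 in T47D-PA6, and the lines did not overlap. KCNK15 rose by 0.67 in T47D-PA6 over T47D-VC1 (SE 0.12, limma adjusted p = 0.012). The call was lost without T47D-VC1 replicate 3, T47D-PA6 replicate 2 or T47D-PA6 replicate 3, with adjusted p-values of at most 0.057 in these fits and a log2 fold change of at least 0.61. A second probe, well above background on all 9 arrays, gave 30.7, 63.7 and 47.8 in T47D-VC1 and 46.2, 111 and 102 in T47D-PA6, which overlap.

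KCNK5 and KCNK6, which encode the acid-sensitive channel TASK2 and the channel TWIK2, were not called. KCNK5 had a signal of 1509, 2371 and 2431 in T47D-VC1, 2252, 1871 and 2044 in T47D-PA5, and 1613, 1030 and 1111 in T47D-PA6. The T47D-PA6 arrays lay below all T47D-PA5 arrays and overlapped T47D-VC1 through its replicate 1. The log2 fold change was -0.74 against either line (SE 0.23, limma adjusted p = 0.075 over T47D-VC1 and 0.081 over T47D-PA5). Without T47D-VC1 replicate 1 it passed the test against T47D-VC1 at -0.97, and without T47D-PA6 replicate 1 at -0.94. KCNK6 differed by -0.05 between T47D-PA6 and T47D-VC1, with a 95% interval of -0.30 to 0.21.

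Of the 4 tested silent subunit genes, KCNS3 and KCNG1 were higher in both lines that carry a PTH-AS fragment. KCNS3 encodes Kv9.3, a silent partner of voltage-gated channels, and its probe lies at chr2:18114112-18114171. Its signal was 245, 212 and 180 in T47D-VC1, 1430, 1162 and 1224 in T47D-PA5, and 724, 414 and 356 in T47D-PA6. The lines did not overlap, and the highest line was T47D-PA5. KCNS3 rose by 2.59 in T47D-PA5 over T47D-VC1 (SE 0.25, limma adjusted p = 0.0027) and by 1.17 in T47D-PA6 over T47D-VC1 (SE 0.25, limma adjusted p = 0.025). In T47D-PA6 over T47D-PA5 it fell by 1.42 (SE 0.25, limma adjusted p = 0.012). The call against T47D-VC1 in T47D-PA6 was lost without T47D-VC1 replicate 2 or replicate 3 or T47D-PA6 replicate 2 (limma adjusted p of at most 0.094), and that between T47D-PA6 and T47D-PA5 without T47D-PA6 replicate 2 (limma adjusted p = 0.054).

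RefSeq gives KCNS3 starts at more than 1 place, and the 250 bases before 2 of them are shown because KCNS3 was called in all 3 comparisons. They lie on the plus strand of GRCh38.p14 at chr2:17877597-17877846, with 14 CG, and at chr2:17878417-17878666, with 38 CG, in capitals. Which start the T47D lines use was not measured.
KCNS3, first start: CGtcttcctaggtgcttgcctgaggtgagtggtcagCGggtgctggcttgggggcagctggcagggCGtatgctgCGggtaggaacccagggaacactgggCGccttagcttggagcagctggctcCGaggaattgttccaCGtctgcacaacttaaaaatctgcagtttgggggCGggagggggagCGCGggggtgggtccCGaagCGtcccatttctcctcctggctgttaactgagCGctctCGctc
KCNS3, second start: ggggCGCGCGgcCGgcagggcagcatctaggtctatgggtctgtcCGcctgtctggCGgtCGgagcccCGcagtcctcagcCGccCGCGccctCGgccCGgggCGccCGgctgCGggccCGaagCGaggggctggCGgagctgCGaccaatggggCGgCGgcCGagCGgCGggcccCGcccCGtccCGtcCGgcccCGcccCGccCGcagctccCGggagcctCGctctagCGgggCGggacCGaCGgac

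KCNG1 encodes Kv6.1, another silent partner of voltage-gated channels, and its probe lies at chr20:49620221-49620280. Its signal was 38.6, 53.8 and 40.0 in T47D-VC1, 77.5, 83.6 and 94.0 in T47D-PA5, and 117, 154 and 136 in T47D-PA6. The lines did not overlap, and T47D-PA5 was between the others. KCNG1 rose by 1.63 in T47D-PA6 over T47D-VC1 (SE 0.16, limma adjusted p = 0.001), by 0.96 in T47D-PA5 over T47D-VC1 (SE 0.16, limma adjusted p = 0.027) and by 0.67 in T47D-PA6 over T47D-PA5 (SE 0.16, limma adjusted p = 0.037). The first held without any one array, with an adjusted p-value in limma of at most 0.0075. The second was lost in 5 of the 9 fits without 1 array (T47D-VC1 replicate 1 or 3, T47D-PA5 replicate 2 or 3, or T47D-PA6 replicate 3), with a log2 fold change of at least 0.87 and an adjusted p-value in limma of at most 0.12. That between T47D-PA6 and T47D-PA5 was lost in 6, all but those without T47D-VC1 replicate 1 or 2 or T47D-PA6 replicate 1 (at least 0.58, limma adjusted p of at most 0.14).

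KCNG3, which encodes the silent subunit Kv6.3, passed the filter in T47D-PA5 alone and was well above background on no T47D-PA6 array. Its signal was 22.2, 17.8 and 12.1 in T47D-VC1, 22.2, 24.5 and 15.4 in T47D-PA5, and 12.2, 5.81 and 7.71 in T47D-PA6. KCNG3 was at least 1.75-fold lower in T47D-PA6 than in T47D-PA5, where the bound is set by the lowest signal well above background on the T47D-PA6 arrays (limma adjusted p = 0.038). The filter kept KCNG3 through the line where it is highest, so this call, counted among those above, partly reflects that choice. The call held in 3 of the 9 fits without 1 array, those without T47D-VC1 replicate 1, T47D-VC1 replicate 3 or T47D-PA6 replicate 1, and the highest adjusted p-value in limma among the others was 0.13. Against T47D-VC1 the bound was 1.45-fold and the test was not passed (limma adjusted p = 0.077), except without T47D-PA6 replicate 1. KCNF1, the fourth silent subunit gene tested, had a difference of 0.48 in T47D-PA6 over T47D-VC1 (SE 0.37, limma adjusted p = 0.47).

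Among the 12 tested voltage-gated pore subunit genes, KCNH1, KCNH3 and KCNQ3 were close to a call without passing the test. KCNH1, which encodes EAG1, had a signal of 12.4, 22.8 and 18.9 in T47D-VC1 and 42.02, 38.4 and 29.0 in T47D-PA5, which did not overlap. The log2 fold change was 1.05 (SE 0.25, limma adjusted p = 0.086). In T47D-PA6 the signal was 26.57, 17.91 and 22.25, a log2 fold change of -0.71 over T47D-PA5 (SE 0.25, limma adjusted p = 0.12). The KCNH1 probe lies at chr1:210856675-210856734, within 5 Mb of the KCNK2 probe. The medians of the KCNK2 neighbours, 0.33 and -0.68 in these comparisons, had the same signs. Their part in the KCNH1 values was not tested. KCNH3, which encodes a related channel of brain, differed by 0.34 between T47D-PA6 and T47D-VC1 (SE 0.11, limma adjusted p = 0.086). KCNQ3, a subunit of the M-current, differed by -0.55 between T47D-PA6 and T47D-PA5 (SE 0.16, limma adjusted p = 0.072) and passed the test at -0.71 when T47D-PA6 replicate 1 was left out.

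**Figure D3:**
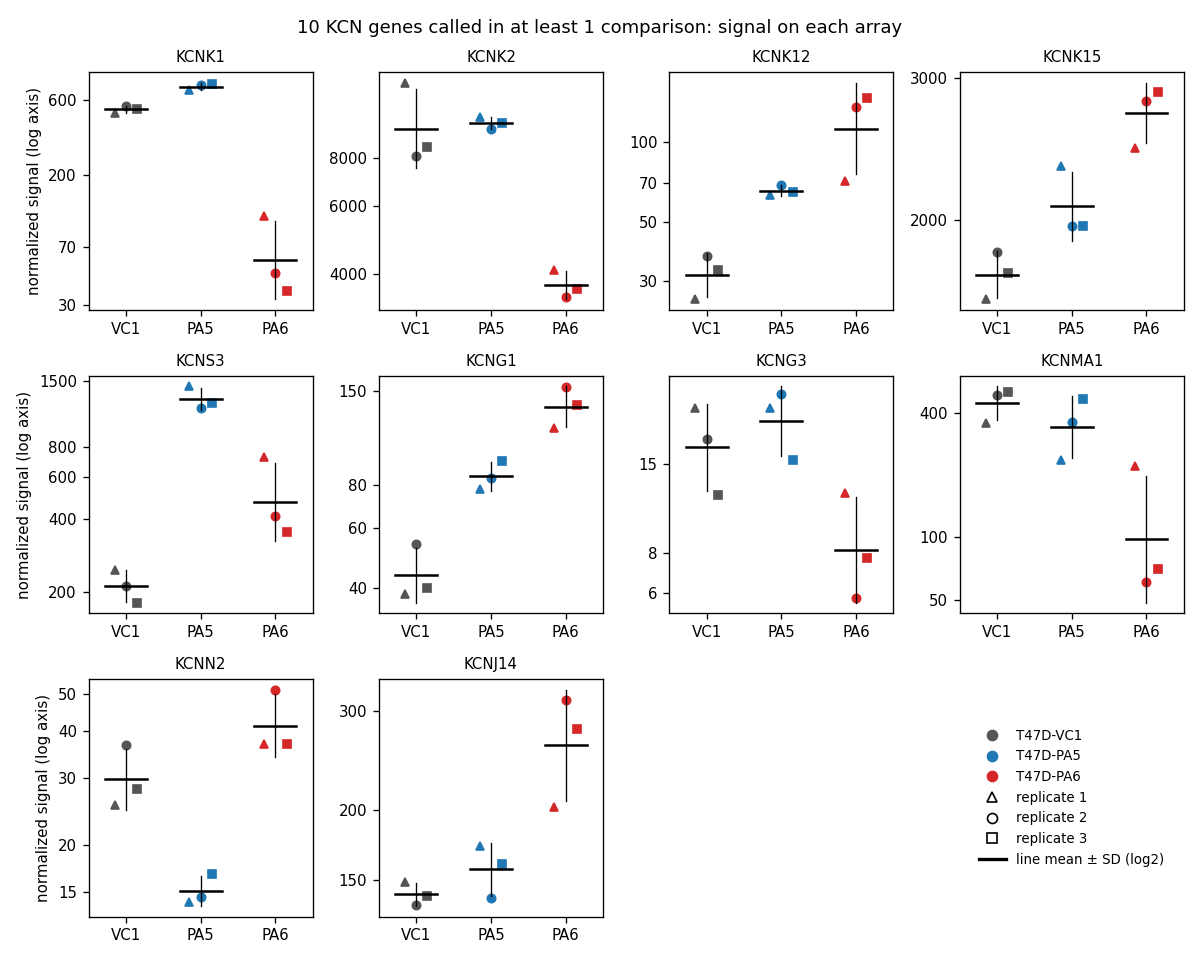
Normalized signal (y axis, log scale, its own range in each panel) on each array of the 3 lines (x axis) for 10 KCN genes called in at least 1 comparison. Symbols are replicates 1 to 3, horizontal bars are line means and vertical bars are the SD on the log2 scale, and the T47D-PA6 arrays of KCNK1 and KCNK2 lie below all other arrays.

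Among the 4 tested calcium- or sodium-activated genes, KCNMA1 and KCNN2 were called. KCNMA1 encodes the pore of BK, the large-conductance channel opened by calcium and depolarization, and its brightest probe lies at chr10:78644767-78644826. This probe gave 358, 486 and 502 in T47D-VC1, 236, 360 and 467 in T47D-PA5, and 220, 60.6 and 70.4 in T47D-PA6. The T47D-PA6 arrays were below all others, but T47D-PA6 replicate 1 was close to T47D-PA5 replicate 1. KCNMA1 fell by 2.18 in T47D-PA6 over T47D-VC1 (SE 0.47, limma adjusted p = 0.024) and by 1.80 over T47D-PA5 (SE 0.47, limma adjusted p = 0.047). On slide 1, with replicate 1 of each line, the differences were -0.70 and -0.10, and on slide 3 they were -2.94 and -2.84. The call over T47D-VC1 was lost without T47D-VC1 replicate 2 or 3 or T47D-PA6 replicate 2 or 3 (limma adjusted p of at most 0.091), and the call over T47D-PA5 held only without T47D-PA6 replicate 1, with an adjusted p-value in limma of at most 0.16 in the other 8 fits. With the slide as a block both calls were lost (log2 fold change -2.09, limma adjusted p = 0.063 over T47D-VC1, and -1.71, limma adjusted p = 0.11 over T47D-PA5), and with the replicate number as a block the call over T47D-PA5 was lost (limma adjusted p = 0.075).

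KCNMA1 had 5 probes on the array, of which 3 passed the filter. The second probe gave 55.6, 85.7 and 117 in T47D-VC1 and 33.6, 24.4 and 26.5 in T47D-PA6, a log2 difference of -1.56. In T47D-PA5 the second probe gave 40.8, 63.1 and 46.9, all above the T47D-PA6 arrays. Its log2 difference of T47D-PA6 over T47D-PA5 was -0.82, compared with -1.80 on the brightest probe. A further probe gave 46.1, 71.6 and 91.0 in T47D-VC1 and 26.8, 10.3 and 9.06 in T47D-PA6. It was well above background on 7 of the 9 arrays, not on T47D-PA6 replicates 2 and 3, so no size of the difference is given for it. On all 3 probes the T47D-PA6 arrays lay below all T47D-VC1 arrays, with T47D-PA6 replicate 1 the highest of its line. The other probes were well above background on no array.

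**Figure D4:**
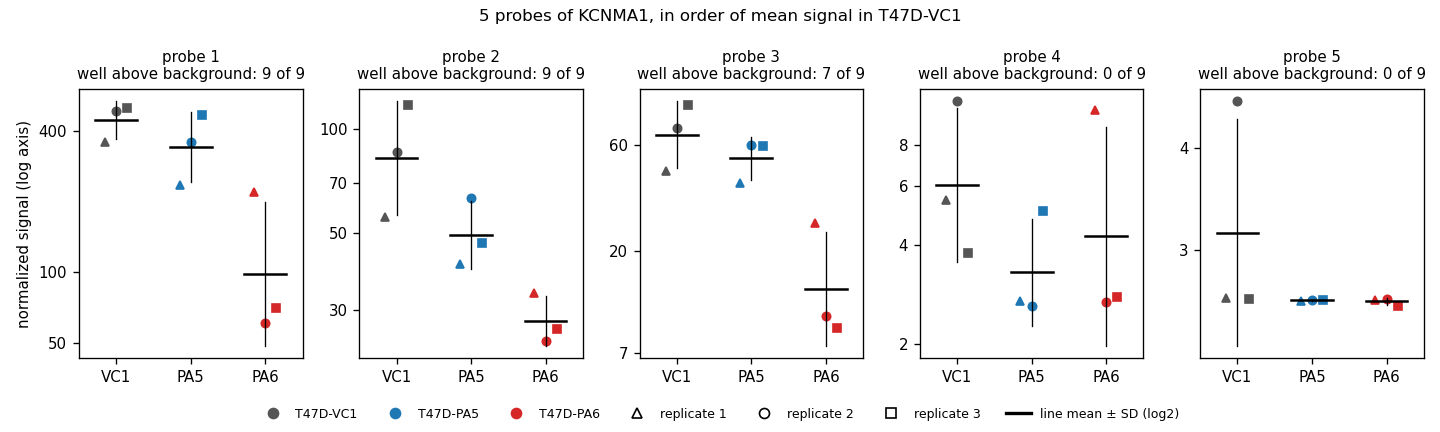
Normalized signal (y axis, log scale, its own range in each panel) of the 5 KCNMA1 probes on each array of the 3 lines (x axis), with line means and the SD on the log2 scale. Probes 1 to 3 have all T47D-PA6 arrays below all T47D-VC1 arrays, and probes 4 and 5 are well above background on 0 of 9 arrays.

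KCNN2 encodes SK2, a small-conductance channel opened by calcium through calmodulin. Its signal was 25.6, 36.7 and 28.1 in T47D-VC1, 14.1, 14.6 and 16.7 in T47D-PA5, and 36.9, 51.4 and 36.9 in T47D-PA6. The T47D-PA5 arrays were the lowest without overlap. KCNN2 passed the filter through T47D-VC1 and T47D-PA6, and in T47D-PA5 it was well above background on 2 arrays. Its T47D-PA5 signals were near the lowest marked well above background on those arrays, 11.4 to 15.2. KCNN2 fell by 0.98 in T47D-PA5 over T47D-VC1 (SE 0.18, limma adjusted p = 0.037) and rose by 1.45 in T47D-PA6 over T47D-PA5 (SE 0.18, limma adjusted p = 0.0036). The second held without any one array, and the first held only without T47D-VC1 replicate 1, T47D-PA6 replicate 1 or T47D-PA6 replicate 2 (log2 fold change of -1.09 to -0.83 over the 9 fits, limma adjusted p of at most 0.15). With another background correction, normexp, the sizes were smaller. The first was -0.26 (limma adjusted p = 0.16) and the second 0.47 (limma adjusted p = 0.0077). KCNN4, which encodes the intermediate-conductance channel of epithelia and lymphocytes, had a signal of 33.5, 18.9 and 17.9 in T47D-VC1, 35.3, 72.1 and 59.4 in T47D-PA5, and 26.2, 59.1 and 64.5 in T47D-PA6. Its log2 fold change was 1.25 in T47D-PA5 (SE 0.41, limma adjusted p = 0.19) and 1.05 in T47D-PA6 (SE 0.41, limma adjusted p = 0.15) over T47D-VC1. On slide 1 these differences were 0.07 and -0.35.

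Of the inward rectifier genes, KCNJ14 was called. KCNJ14 encodes Kir2.4, and its signal was 149, 136 and 140 in T47D-VC1, 173, 140 and 160 in T47D-PA5, and 202, 315 and 279 in T47D-PA6. The T47D-PA6 arrays were above all others, and the other lines overlapped. KCNJ14 rose by 0.88 in T47D-PA6 over T47D-VC1 (SE 0.17, limma adjusted p = 0.016) and by 0.73 over T47D-PA5 (SE 0.17, limma adjusted p = 0.03). On slide 1 the differences were 0.44 and 0.23, and on slide 3 they were 1.08 and 0.89. The first call was lost without T47D-VC1 replicate 2 or 3 or T47D-PA6 replicate 2 or 3 (limma adjusted p of at most 0.068), and the second without T47D-VC1 replicate 3, T47D-PA5 replicate 2 or 3 or T47D-PA6 replicate 2 or 3 (limma adjusted p of at most 0.11). The second was also lost with the slide as a block (log2 fold change 0.65, limma adjusted p = 0.067) and, narrowly, with the replicate number as a block.

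Auxiliary subunits gave no call, and KCNE4 had the lowest adjusted p-value of the class. KCNE4 is a small membrane protein that inhibits several voltage-gated channels. Its signal was 3989, 638 and 646 in T47D-VC1, 2401, 2750 and 2652 in T47D-PA5, and 5173, 4808 and 4909 in T47D-PA6. T47D-VC1 replicate 1 stood above all T47D-PA5 arrays, while T47D-VC1 replicates 2 and 3 were below every other array. The log2 fold change of T47D-PA6 over T47D-VC1 was 2.07 (SE 0.61, limma adjusted p = 0.068), with 0.37 on slide 1 and 2.91 on slide 3. Without T47D-VC1 replicate 1 it was 2.95 and passed the test. KCNMB4, the BK beta subunit best known from brain, differed by -0.35 between T47D-PA6 and T47D-PA5 (SE 0.14, limma adjusted p = 0.17).

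Replicate 1 of each line differed from the other arrays more than these did from each other, and replicate 1 was on another slide and in an earlier scan run. In the tested KCN genes, the median absolute log2 difference between replicate 1 and the mean of replicates 2 and 3 was 0.48 for T47D-VC1, 0.35 for T47D-PA5 and 0.44 for T47D-PA6. Over all genes these medians were 0.25, 0.21 and 0.26. Between replicates 2 and 3 the KCN medians were 0.18, 0.17 and 0.19, and those over all genes were 0.11, 0.085 and 0.087. The tested KCN genes thus varied more than all genes between replicates 2 and 3 as well. The largest shift of replicate 1 was that of KCNC1, a fast delayed rectifier gene, at 3.003 in T47D-VC1 and 2.51 in T47D-PA5. Its signal was 124, 16.1 and 14.8 in T47D-VC1, 23.8, 6.29 and 2.78 in T47D-PA5, and 59.3, 41.4 and 48.0 in T47D-PA6, and no comparison of KCNC1 passed the test. The shift of KCNE4 was 2.63 for T47D-VC1, -0.17 for T47D-PA5 and 0.09 for T47D-PA6.

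**Figure D5:**
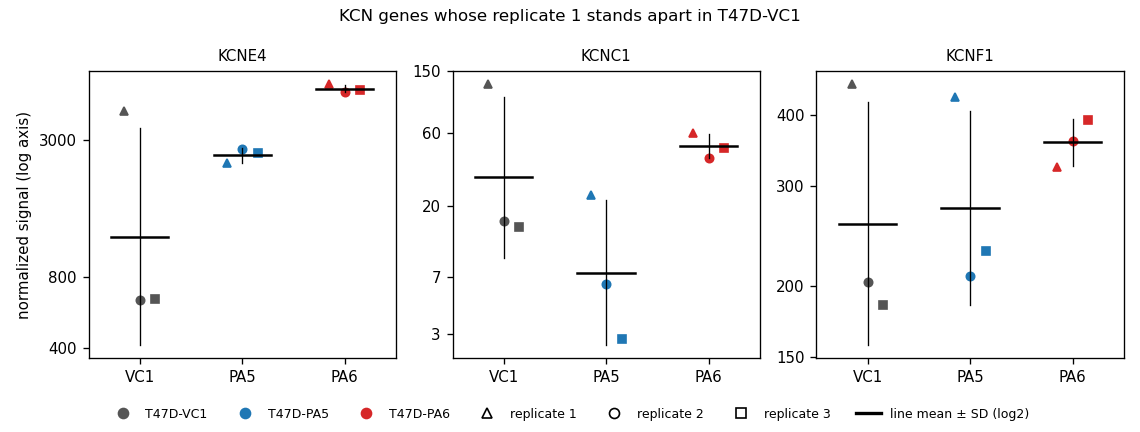
Normalized signal (y axis, log scale, its own range in each panel) of KCNE4, KCNC1 and KCNF1 on each array of the 3 lines (x axis), with line means and the SD on the log2 scale. The triangle of T47D-VC1, its replicate 1, lies above the mean of its other 2 replicates by 1.23 to 3.003 on the log2 scale.

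The promoters of the called genes were searched on both strands for GAAANNGAAA, a pattern of the interferon-stimulated response element, and TTCNNNGAA, a pattern of STAT dimers. The patterns can share the letters GAA. Neither occurred in the 250 bases before the start in the 10 RefSeq records of the 7 called KCN genes that had one. KCNG1, KCNK12 and KCNK15 had no record in the table used here. Over all 35116 records, 3.02% held the first pattern and 6.57% the second. Over the 108 records of 72 KCN genes 1 record, of KCNMB3, held the first and 1, of KCNT2, the second. At the shares over all records, 10 records are too few to show whether the called genes hold the patterns less often.

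A list of 41 other genes that handle potassium gave 23 tested genes, with pumps, cotransporters, their kinases, other channels and channel partners. In T47D-PA6 over T47D-VC1, 2 were called higher, the neuronal chloride extruder SLC12A5 at 0.40 and the pump regulator FXYD6 at 1.13, and 2 lower, the kinase WNK1 at -0.46 and the pacemaker channel HCN3 at -0.64. In T47D-PA6 over T47D-PA5, 0 were higher and 3 lower, WNK1 at -0.53, WNK2 at -1.06 and HCN3 at -1.01. In T47D-PA5 over T47D-VC1, 0 of the 23 were called. Over all genes, 4.59% were called higher and 5.16% lower in T47D-PA6 over T47D-VC1, and 3.54% and 5.96% in T47D-PA6 over T47D-PA5. In T47D-PA5 over T47D-VC1 the share called was 1.67%. Of 8 listed partners of KCN channels 2 were tested, and neither was called. Of 13 sodium-potassium pump genes 8 were tested, of which FXYD6 alone was called, and of 3 proton-potassium pump genes 0 were tested.

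All 10 luminal markers examined exceeded background on each of the 9 arrays. Their summed signal ranged from 652100 to 701300 over the arrays but was mostly KRT19, XBP1 and KRT18. KRT19 had 301400 on every array except T47D-PA6 replicate 3, as quantile normalization gives probes of equal rank the same value. The sum therefore cannot show whether the dimmer luminal markers changed. Sums of the other marker groups below are likewise weighted to their brightest probes. The progesterone receptor gene PGR was lower in T47D-PA6, at 7201 compared with 15080 in T47D-VC1 (log2 fold change -1.07, SE 0.17, limma adjusted p = 0.0072). The mesenchymal gene VIM had 6.37 in T47D-VC1, where it was well above background on no array. VIM rose to 24.9 in T47D-PA5 and 67.5 in T47D-PA6 (limma adjusted p = 0.0011 in T47D-PA6 over T47D-VC1). COL1A1, the other mesenchymal marker tested, moved the opposite way, from 347.5 in T47D-VC1 to 311 in T47D-PA5 and 246.2 in T47D-PA6 (log2 fold change -0.50, SE 0.10, limma adjusted p = 0.021 in T47D-PA6 over T47D-VC1). The 6 mesenchymal markers summed to 355 to 392 in T47D-VC1, 335 to 374 in T47D-PA5 and 296 to 380 in T47D-PA6, and COL1A2, DCN and LUM were well above background on no array. All 4 neuronal markers exceeded background in every line, of which RBFOX3 was called higher in T47D-PA6 over T47D-VC1 (log2 fold change 0.68, SE 0.13, limma adjusted p = 0.015), and they summed to 1609 to 1782 in T47D-VC1, 1978 to 2722 in T47D-PA5 and 1952 to 1976 in T47D-PA6. The 4 basal markers summed to 385 to 839, 878 to 939 and 986 to 1448 in the same order, mostly ACTA2, with KRT5 and TP63 well above background on no array. The 3 leukocyte markers measured summed to 404 to 508, 306 to 697 and 466 to 494, with CD3E well above background on no array. The 3 endothelial markers summed to 48.6 to 73.7, 45.9 to 66.0 and 45.3 to 54.2, with PECAM1 well above background on no array. The part of these markers in the KCN results was not tested.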

How the data were processed

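The authors hybridized Cy3-labelled RNA of T47D-VC1, T47D-PA5 and T47D-PA6, 3 arrays each, to 8×60K arrays. Per the file headers, Agilent Feature Extraction 10.7.1.1 read the spots, while the submitters' processing notes name 9.5.1.1. They deposited, for each spot, the processed intensity, background-subtracted and detrended and not normalized between arrays. They also deposited quantile-normalized intensities, used as an alternative. Both start from spot reading that was not repeated here, so any error of scanning or background subtraction remains. Depth for arrays is signal over background, and between 44% and 48% of probes per array were well above background. The number of arrays limits the precision, and with 3 arrays against 3 the smallest two-sided p-value of an exact permutation test is 0.1.

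Here, control spots and 46 to 117 outlier spots per array were left out, spots of the same probe were averaged as log2 values, and 58201 probes were quantile-normalized. The 26155 probes tested, of 20092 genes, were fitted with limma 3.58.1 (R 4.3.3, data.table package version 1.17.8) over all 9 arrays without covariates, with 6 residual degrees of freedom, and p-values were adjusted by Benjamini-Hochberg over genes. Probe positions are on hg19, copied from the files. The exon or UTR a probe matches was not analysed here. Promoters were searched with Python 3.11.15 and pandas 2.3.3. Where a line was well above background on no array, a fold is a lower bound. The fit was checked on simulated data.

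The genes named are those called in any comparison, those past the study's fold limits and well above background on all 9 arrays, the 10 with the highest mean signal, and the 3 with the lowest adjusted p-value among those not called in each comparison. A few genes that the counts include are left unnamed. KCNC1 was chosen after its values were seen. The members and lists were chosen with earlier results of these data known. The alternatives tried were other normalization, background correction, filters, blocks, tests and probe rules, the authors' table, and leaving out arrays.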

Additional observations from a re-analysis of the deposited data

How the results depend on the processing

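The alternatives were run on 29 log2 fold changes, of the called KCN genes and those nearest to a call, and none of the 29 changed sign. Their sizes did differ between settings. In T47D-PA6 over T47D-VC1, KCNK12 ranged from 0.98 to 2.16 and KCNG1 from 0.98 to 1.78. The number of KCN genes called was 9 in T47D-PA6 over T47D-VC1, 3 in T47D-PA5 over T47D-VC1 and 8 in T47D-PA6 over T47D-PA5. In that order it ranged from 4 to 12, 1 to 4 and 3 to 14 when each array was left out in turn. Over all genes these ranges were 691 to 2706, 99 to 613 and 701 to 2900. With replicates 2 and 3 alone, chosen after seeing the data, the KCN count was 21, 10 and 21, and over all genes 7270, 4028 and 6929 were called. The methods' unpaired test gave 1, 1 and 4, and over all genes 432, 39 and 789. In T47D-PA6 over T47D-VC1 the unpaired test kept KCNG1. It lost KCNK1, KCNK2 and KCNK12, with unpaired-test adjusted p-values of 0.07, 0.073 and 0.098. Without a filter on dim probes the KCN count was 6, 1 and 5. With the slide as a block it was 10, 5 and 10, and with the scan run as a block 13, 4 and 14, although the slide block ended both calls of KCNMA1 and that of KCNJ14 in T47D-PA6 over T47D-PA5. The other settings (a 75th percentile shift, normexp, the authors' table, a stricter filter, a trend in the prior variance, a fit to the compared lines alone and the mean of a gene's probes) gave 6 to 12, 2 to 3 and 6 to 10. Of these, the 75th percentile shift ended the call of KCNG3 in T47D-PA6 over T47D-PA5 (limma adjusted p = 0.093), and normexp ended it too (limma adjusted p = 0.1) with that of KCNN2 in T47D-PA5 over T47D-VC1 (limma adjusted p = 0.16). The cause was not tested.

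With the replicate number as a block the counts were 11, 4 and 12, and the calls of KCNMA1 and KCNJ14 in T47D-PA6 over T47D-PA5 were lost. The labels do not say what a replicate number shares, but per the file headers the replicate 1 arrays shared slide 1 and the earlier scan run. Deviations from the line means of arrays with the same number correlated at 0.0995 to 0.337, 1 of the 9 correlations being under 0.1, and those of arrays with different numbers at -0.31 to 0.26, with 4 of 9 arrays correlating best with their own number in both other lines. The replicate 1 arrays correlated at 0.21 to 0.34 with each other and at -0.31 to -0.13 with replicates 2 and 3 of the other lines. The scan run block above sets them apart from the other arrays. Among replicates 2 and 3, arrays with different numbers correlated at up to 0.26, so the numbers were not taken to pair the arrays.

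Signal over background limits the rest: 58 of the 96 KCN genes did not pass the filter on dim probes and were not tested, although 14 of the 58 were well above background on at least 1 array.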

Other observations

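Among the KCN-named transcripts left out above, KCNMB2-AS1, KCND3-IT1, KCNH1-IT1 and KCNQ5-IT1 exceeded background on each of the 9 arrays, and none was called in any comparison. KCNIP2-AS1, named for the gene of a calcium-binding partner of Kv4 channels, differed by 0.94 between T47D-PA6 and T47D-PA5 on the log2 scale (SE 0.24, limma adjusted p = 0.044) and by -1.19 between T47D-PA5 and T47D-VC1 (SE 0.24, limma adjusted p = 0.052). The probe used was well above background on 8 of the 9 arrays. A second probe, well above background on 7, gave 22.3, 37.7 and 21.8 in T47D-VC1 and 12.6, 19.6 and 14.7 in T47D-PA5, without overlap. In T47D-PA6 the second probe gave 17.35, 20.95 and 24.6, which overlap T47D-PA5.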
